A study of Mus musculus with 4 samples.

Results

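The intermediate filament genes described here are Nefl, Nefm, Nefh, Ina, Prph, Vim, Gfap and Nes, measured in mouse dorsal root ganglia. They were taken by the gene symbol that the platform annotation gives each probe set. Only probe sets with 1 symbol were taken, so any that the annotation gives to several genes are not included. Taken this way, the 8 genes, of 18193 named genes, held 20 of the 45101 probe sets. Total RNA of freshly dissected ganglia was hybridised to 4 Affymetrix mouse arrays, 2 of ganglia from the sample-2 level and 2 of ganglia from the sample-1 level. The labels used here do not name the levels or give a strain, age, sex or animal for an array. All 4 arrays share the tissue and the fresh dissection, and the arrays of each level are numbered 1 and 2. The p-values given here therefore rest on the spread between arrays, and that spread may be technical. Most of the weight in the variance of a probe set came from other probe sets of like intensity. It had 9.71 prior degrees of freedom from those, against 2 from its own arrays (limma).

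Intermediate filaments are rope-like polymers of the cytoskeleton. In neurons the light, medium and heavy neurofilament chains assemble together, with alpha-internexin or peripherin, and fill the axon, where their amount is tied to axon calibre. Large myelinated sensory neurons are rich in neurofilaments, and peripherin is typical of small unmyelinated ones. Vimentin is made by glia, fibroblasts and endothelium, GFAP by astrocytes and some peripheral glia, and nestin by progenitors and by several adult cell types, among them muscle fibres and vascular cells.

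Nefl, Nefm and the brightest probe set of Prph differed little between the levels, with a sample-2 mean of 0.991 to 1.06 times the sample-1 mean. Nefh, Ina and the brightest probe set of Vim lay somewhat lower at the sample-2 level without passing the test. The other 2 probe sets of Vim differed little, at 0.976 and 0.967 times the sample-1 mean. For Gfap and the Nes probe set 1418289_at the intervals of the difference (limma) were wide, at -0.914 to 0.43 and -0.355 to 0.59. They cannot tell little change from a larger one. Another probe set of Nes, near the filter level at the sample-2 level, was lower there. Of the 20 probe sets, 15 passed a filter that left out the dimmest 40% of probe sets (a mean under an intensity of 14.3). Of these 15, 14 had a mean above the filter at both levels, and 0 of the 14 passed an adjusted p of 0.05 (limma, Benjamini-Hochberg over all 27022 probe sets tested). The remaining probe set, 1449022_at of Nes, passed the filter only through its sample-1 arrays, so its adjusted p of 0.0236 is given as a value and is no support for a difference. Over all probe sets tested the share called was 0.622%, with 0.400% lower and 0.222% higher. An unadjusted p under 0.05 (limma) was found for 3 of the 15, that Nes probe set included, against 10.9% of all probe sets. Differences are the sample-2 mean minus the sample-1 mean on the log2(intensity + 16) scale, which understates the change of dim probe sets.

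**Figure D1:**
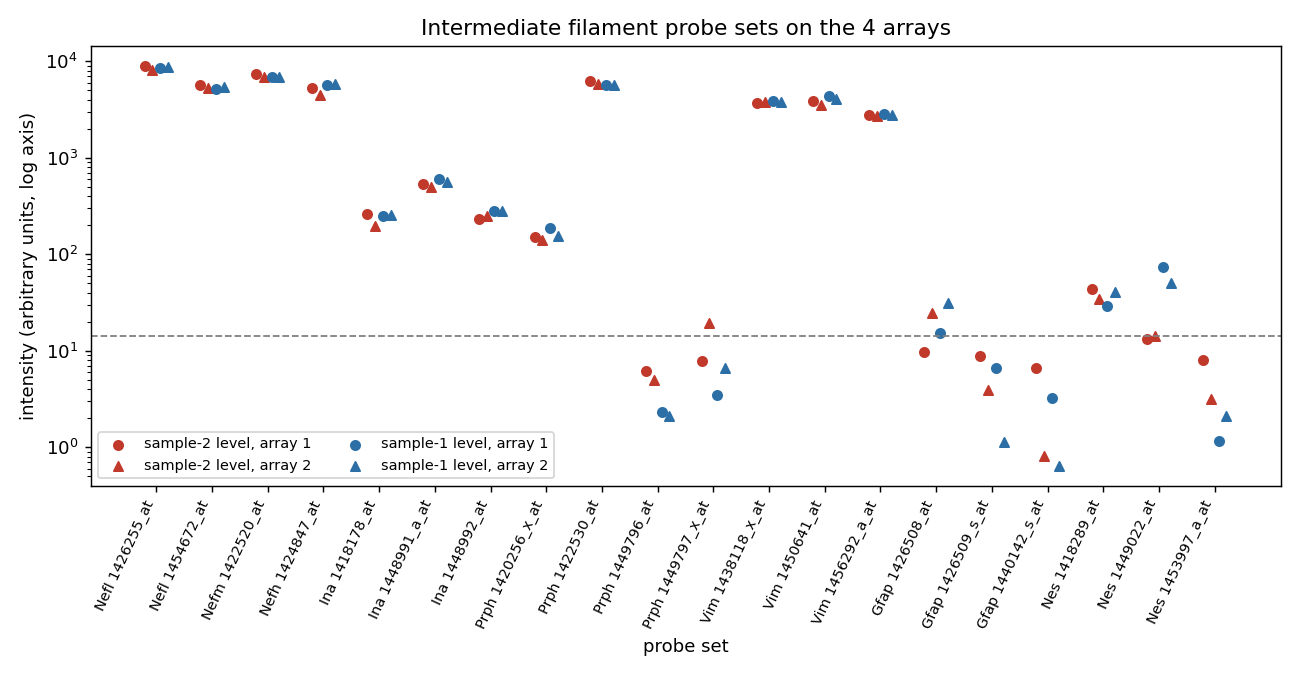
Intensity of each of the 20 intermediate filament probe sets (log axis, arbitrary units) on the 2 sample-2 arrays (red) and the 2 sample-1 arrays (blue), with array 1 as circles and array 2 as triangles. The dashed line marks the filter level of 14.3, and the Nes probe set 1449022_at is the one whose sample-2 points lie at about that line while both sample-1 points lie above 50.

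Nefl encodes the light chain, the core subunit of neurofilaments. Its brightest probe set, 1426255_at, measured 8943 and 8161 on the sample-2 arrays, against 8515 and 8746 on the sample-1 arrays. Both sample-1 values lay between the 2 sample-2 values, so the spread within the sample-2 level exceeded the difference. The means were 8552 ± 553 at the sample-2 level and 8630 ± 163 at the sample-1 level (SD, n = 2 each). The fitted difference was -0.01 with a 95% interval of -0.15 to 0.12 (adjusted p = 0.962, limma). On the linear scale that interval runs from 0.903-fold to 1.08-fold. The second probe set, 1454672_at, measured 5651 and 5222 on the sample-2 arrays, against 5121 and 5470 on the sample-1 arrays. It overlapped as well, with a difference of 0.04 ± 0.07 (SE, adjusted p = 0.892, limma).

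Nefm encodes the medium chain and lies beside Nefl on the chromosome, with 0 protein-coding genes between them in the reference annotation. It measured 7300 and 6848 on the sample-2 arrays, against 6867 and 6890 on the sample-1 arrays. The sample-1 arrays were nearly equal and lay inside the sample-2 range. The difference was 0.04, with a 95% interval of -0.09 to 0.17 (adjusted p = 0.867, limma). On sample-2 array 1, Nefm and both Nefl probe sets were at their highest of the 4 arrays, 0.06 to 0.08 above their own means on the log2 scale.

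Nefh encodes the heavy chain, whose long tail carries many phosphorylation sites and which is enriched in large myelinated axons. Its 1 probe set measured 5331 and 4506 on the sample-2 arrays, against 5637 and 5746 on the sample-1 arrays. Both sample-2 arrays lay below both sample-1 arrays, and sample-2 array 2 was the lowest. The means were 4918 ± 583 at the sample-2 level and 5692 ± 76.7 at the sample-1 level (SD, n = 2 each), a ratio of 0.864. The fitted difference was -0.22 ± 0.08 (SE) with a 95% interval of -0.38 to -0.05, and it did not pass over all probe sets (adjusted p = 0.302, limma). Which array was kept moved this value by more than 1.5 times. Without sample-2 array 1 the difference was -0.34 and passed (adjusted p = 0.0365, limma), and without sample-2 array 2 it was -0.09.

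Ina encodes alpha-internexin, a neurofilament partner best known from the central nervous system. Its brightest probe set, 1448991_a_at, measured 536.7 and 502.9 on the sample-2 arrays, against 604.5 and 558.8 on the sample-1 arrays. The probe set 1448992_at measured 232.4 and 248.8 on the sample-2 arrays, against 281.3 and 280.2 on the sample-1 arrays. In both, the sample-2 arrays lay below the sample-1 arrays. The third, 1418178_at, overlapped, with 261.3 and 195.9 on the sample-2 arrays, against 246.2 and 255.4 on the sample-1 arrays. The 3 differences were -0.16, -0.21 and -0.14, all below 0, and none passed (adjusted p = 0.602, 0.534 and 0.786, limma). Across the 27022 probe sets tested, both sample-2 arrays lay below both sample-1 arrays for 20.1% and above them for 21.1%. For the tested filament probe sets the numbers were 7 of 15 below, the Nes probe set 1449022_at among them, and 1 of 15 above. Probe sets of the same gene share their transcript, so these 15 are not independent.

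Prph encodes peripherin, the filament of small sensory and of autonomic neurons. Its brightest probe set, 1422530_at, measured 6236 and 5829 on the sample-2 arrays, against 5658 and 5712 on the sample-1 arrays. Here both sample-2 arrays lay above both sample-1 arrays, the opposite order to Nefh. The difference was 0.08 with a 95% interval of -0.05 to 0.22 (adjusted p = 0.674, limma). The other tested probe set, 1420256_x_at, had the opposite sign. It measured 149.3 and 139.9 on the sample-2 arrays, against 188.6 and 153.0 on the sample-1 arrays, a difference of -0.21 (adjusted p = 0.633, limma). Its suffix marks probes that can match other transcripts. The remaining probe sets of Prph lay under the filter, at 4.93 to 19.4 on the sample-2 arrays and 2.13 to 6.56 on the sample-1 arrays, and were not tested.

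**Figure D2:**
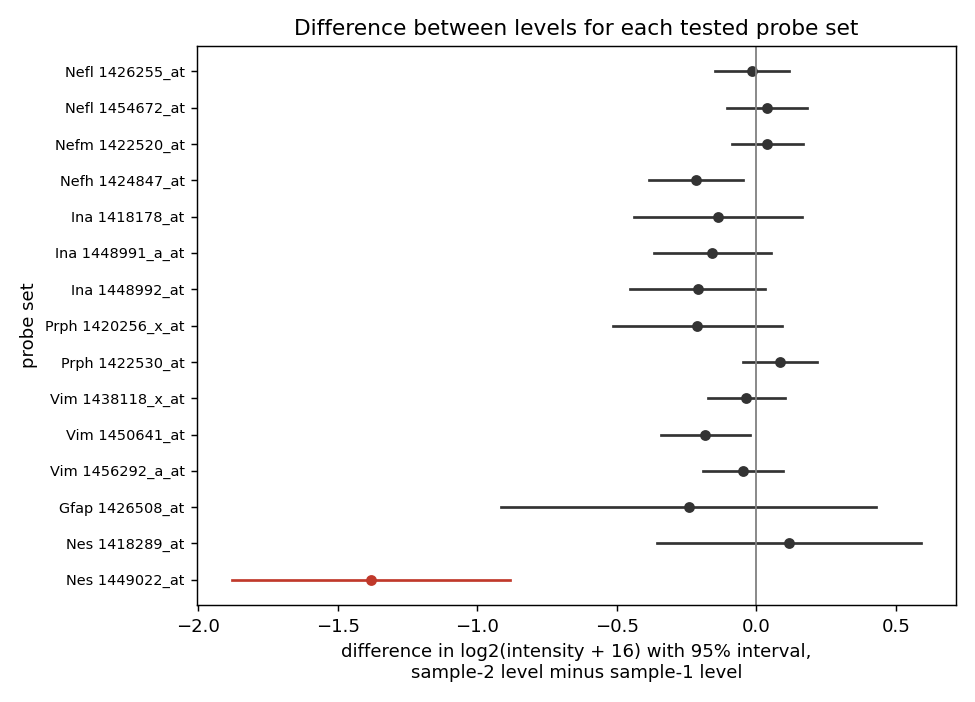
Difference in log2(intensity + 16), sample-2 level minus sample-1 level, for the 15 tested probe sets (points) with 95% intervals from limma (bars). The Nes probe set 1449022_at at -1.38 (red) is the one past an adjusted p of 0.05 and passed the filter only through its sample-1 arrays, and the Nefl and Nefm intervals span 0 within -0.15 to 0.18.

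Vim encodes vimentin, the main filament of mesenchymal and many glial cells. Its brightest probe set, 1450641_at, measured 3908 and 3521 on the sample-2 arrays, against 4385 and 4049 on the sample-1 arrays. The sample-2 arrays lay below the sample-1 arrays, by -0.18 ± 0.07 (SE), and the probe set did not pass (adjusted p = 0.372, limma). The other 2 probe sets of Vim gave smaller values, -0.04 and -0.05, with 95% intervals of -0.17 to 0.10 and -0.19 to 0.10. Of these, 1438118_x_at overlapped between the levels and 1456292_a_at measured 2747 and 2718 on the sample-2 arrays, against 2859 and 2789 on the sample-1 arrays.

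Gfap encodes the glial fibrillary acidic protein. It was dim on every array, at or near the filter level of 14.3, and its levels cannot be called present or absent because no detection calls were used. The tested probe set, 1426508_at, measured 9.77 and 24.7 on the sample-2 arrays, against 15.3 and 30.9 on the sample-1 arrays. Array 2 was higher than array 1 at both levels, so the levels overlapped. The difference was -0.24 with a 95% interval of -0.91 to 0.43 (adjusted p = 0.838, limma), the widest interval of the 15. The remaining 2 probe sets of Gfap measured at most 8.91 on any array and were not tested.

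Nes encodes nestin, a filament of progenitor cells, and its probe sets disagreed. The probe set 1449022_at measured 13.2 and 14.3 on the sample-2 arrays, against 73.8 and 50.8 on the sample-1 arrays. The levels did not overlap. The sample-2 mean on the log2 scale, 4.89, lay under the filter of 4.92, so this probe set was tested only because its sample-1 arrays were high. The means were 13.7 ± 0.739 at the sample-2 level and 62.3 ± 16.2 at the sample-1 level (SD, n = 2 each). The fitted difference was -1.38 ± 0.23 (SE, adjusted p = 0.0236, limma), a size that depends on the pseudocount, with -2.08 at a pseudocount of 1 and -0.69 at 64. It did not pass without sample-1 array 1 (adjusted p = 0.135), without the filter (adjusted p = 0.328) and without the intensity trend in the variance (adjusted p = 0.351, limma in each).

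The probe set 1418289_at, which the same annotation gives to Nes and which had the higher mean on the log2 scale, measured 43.7 and 34.7 on the sample-2 arrays, against 29.3 and 40.8 on the sample-1 arrays. Its levels overlapped, and the difference of 0.12 had a 95% interval of -0.36 to 0.59 (adjusted p = 0.900, limma). That interval and the interval of 1449022_at, -1.88 to -0.88, do not meet. The third, 1453997_a_at, was not tested and measured 7.93 and 3.15 on the sample-2 arrays, against 1.15 and 2.10 on the sample-1 arrays. The tested probe sets of Nes thus had differences of opposite sign. By mean intensity their order turned, with 1449022_at at percentile 55.6 of all probe sets and 1418289_at at 55.3. Taking 1418289_at as the brightest Nes probe set, here and in the ratios and lists, therefore rests on the log2 scale.

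The classes of filament were then set against each other within each array, which takes out the scaling of the array. Each ratio is given relative to its mean on the sample-1 arrays, as a description with no test. The mean of Nefl, Nefm and Nefh over Prph, by the brightest probe sets, lay at -0.12 and -0.18 on the sample-2 arrays, against -0.01 and 0.01 on the sample-1 arrays. Neurofilament transcript was thus slightly lower against peripherin on both sample-2 arrays. This rested on the probe set taken for Prph: with the mean of all tested probe sets of each gene the difference was 0.01.

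Within the neurofilament chains, Nefh against the mean of Nefl and Nefm lay at -0.16 and -0.29 on the sample-2 arrays, against -0.003 and 0.003 on the sample-1 arrays. The difference of -0.23 was -0.24 with the mean of all tested probe sets. Nefh against Prph lay at -0.23 and -0.37 on the sample-2 arrays, against -0.01 and 0.01 on the sample-1 arrays, a difference of -0.30, or -0.15 with the mean of all tested probe sets. The heavy chain was therefore low against Nefl and Nefm on both sample-2 arrays under both ways of taking probe sets. For this ratio the ways differ only in Nefl, because Nefh and Nefm have 1 probe set each. Their agreement is thus no check on the Nefh probe set. Against Prph the levels overlapped by the mean of all tested probe sets, at -0.0761 and -0.226 on the sample-2 arrays, against -0.0792 and 0.0792 on the sample-1 arrays.

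Against the glial and progenitor filaments the order depended on how probe sets were taken. The mean of Nefl, Nefm and Nefh over the mean of Vim, Gfap and Nes lay at 0.16 and -0.08 on the sample-2 arrays, against 0.12 and -0.12 on the sample-1 arrays. With the mean of all tested probe sets of each gene, which takes in the Nes probe set 1449022_at, it lay at 0.43 and 0.10 on the sample-2 arrays, against 0.06 and -0.06 on the sample-1 arrays. The levels overlapped by brightest probe sets and did not overlap by the mean of all, with differences of 0.04 and 0.27. By brightest probe sets the spread within a level was 0.17 (SD), against 0.07 over Vim alone. That ratio over Vim alone lay at 0.12 and 0.12 on the sample-2 arrays, against -0.07 and 0.07 on the sample-1 arrays, so both sample-2 arrays were higher. With the mean of all tested probe sets the difference against Vim was 0.03 in place of 0.12.

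**Figure D3:**
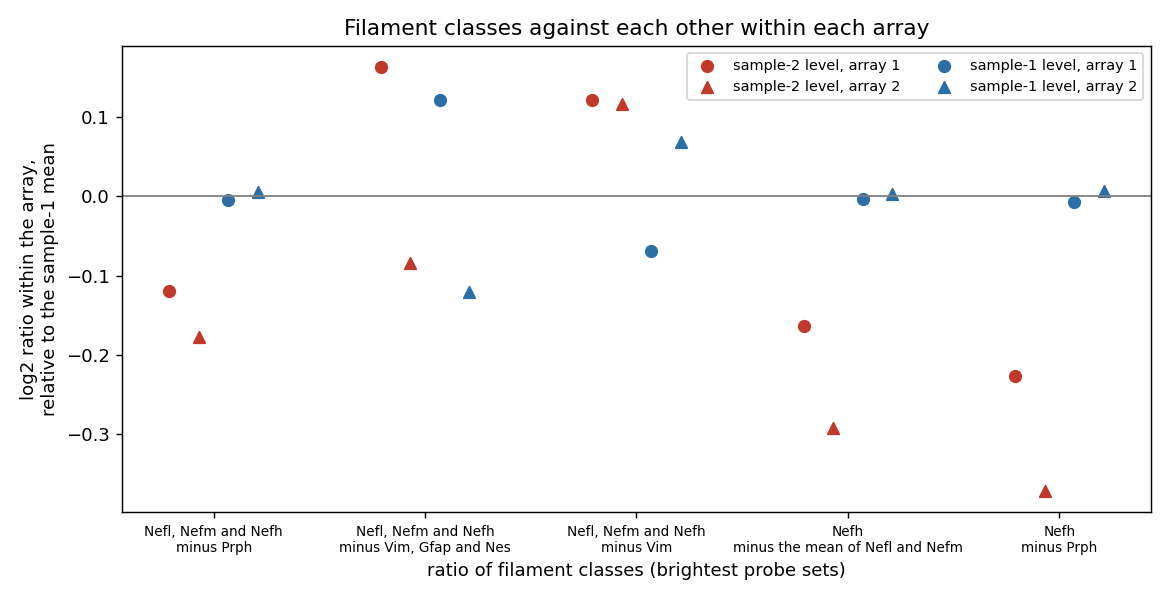
Log2 ratios between filament classes within each array, by brightest probe sets, relative to the mean of the sample-1 arrays, for the 2 sample-2 arrays (red) and the 2 sample-1 arrays (blue). Nefh against the mean of Nefl and Nefm sits at -0.16 and -0.29 on the sample-2 arrays, and the ratio to Vim, Gfap and Nes overlaps between levels by these probe sets.

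The genes whose 4 array values ran closest to those of a filament gene were found by Euclidean distance after each gene was centred on its own mean, among 11958 other genes. Closest to Nefh were Stk24, a kinase, at a distance of 0.01, and Fabp3, a fatty acid-binding protein, at 0.02. Fabp3 measured 741.3 and 617.0 on the sample-2 arrays, against 773.0 and 794.1 on the sample-1 arrays, the same order as Nefh. Cox18 and Shroom4 ran closest to the brightest Prph probe set, and Aars and Trip6 to that of Vim, all at 0.01. With 4 arrays and so many genes such near matches are a description only.

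The proteins that link, move or stabilise filaments were read from a list of 22 genes, of which 18 were tested by their brightest probe set. Of these, 1 rose and 1 fell, against 0.842% called among all 13543 genes read this way (0.295% higher and 0.546% lower). The median difference of the list was 0.07, against -0.01 over all genes. Dync1h1, the heavy chain of the dynein motor, rose, with 1451 and 1352 on the sample-2 arrays, against 1032 and 1009 on the sample-1 arrays. Its difference was 0.45 ± 0.08 (SE, adjusted p = 0.0319, limma). Cryab, a small heat shock protein that binds intermediate filaments, fell, with 1795 and 1294 on the sample-2 arrays, against 2420 and 2273 on the sample-1 arrays. Its difference was -0.62 ± 0.12 (SE, adjusted p = 0.0487, limma), and another probe set of Cryab fell by 0.78 (adjusted p = 0.0106).

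The other 16 tested members of that list did not pass. The kinesin motors that carry neurofilaments, Kif5a and Kif5c, differed by 0.07 and 0.12. Kif5b differed by 0.11 at its brightest probe set and did not pass, while another of its probe sets rose by 0.61 (adjusted p = 0.0238, limma), a gene outside the naming rule and given because of that call. Left out in turn, 3 of the 4 arrays raised the adjusted p of Dync1h1 above 0.05, up to 0.119 without sample-1 array 2, and 3 raised that of Cryab, up to 0.136 without sample-1 array 1. The difference of Cryab was -0.38 without sample-2 array 2, where its call was lost. Dync1h1 kept its call without sample-2 array 2, and Cryab without sample-2 array 1.

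The rest of the axonal cytoskeleton did not pass. Of 22 tested tubulins, microtubule-associated proteins, stathmins, ankyrins, spectrins and actin genes, 0 passed (limma). An unadjusted p under 0.05 was found for 3, against 10.9% of all probe sets (limma). Above 0 lay 17, with a median difference of 0.09, while 51.2% of all 13543 genes lay below 0. Ank2, an ankyrin that ties membrane proteins to the spectrin skeleton, had the largest difference. It measured 2190 and 1900 on the sample-2 arrays, against 1690 and 1485 on the sample-1 arrays (0.36 ± 0.09, SE, adjusted p = 0.120, limma). Tubb3, a neuron-specific tubulin, measured 4644 and 4261 on the sample-2 arrays, against 4291 and 4616 on the sample-1 arrays, and overlapped as Nefl and Nefm did.

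Markers of the cells that make these filaments were read in the same way. For sensory neurons 8 of 10 listed genes were tested and 0 passed, nor did any have an unadjusted p under 0.05 (limma). Above 0 lay 7 of the 8 and below 0 lay 1, with a median difference of 0.10. Among them Pou4f1, a transcription factor of these neurons, measured 539.0 and 567.8 on the sample-2 arrays, against 482.3 and 477.5 on the sample-1 arrays. Over all 13543 genes read this way, 0.546% fell, 0.295% rose and 51.2% lay below 0. For large myelinated neurons 5 of 18 fell and 0 rose, with 15 below 0 and 3 above. Ntrk2, the receptor of brain-derived neurotrophic factor, lay on the other side without passing, with 596.2 and 716.2 on the sample-2 arrays, against 464.4 and 469.3 on the sample-1 arrays (0.47 ± 0.11, SE, adjusted p = 0.0784, limma), and is named because of that. The summed intensity of that list was 16150 and 14850 on the sample-2 arrays, against 18380 and 19150 on the sample-1 arrays. Its largest falls were in Pvalb (-1.64 ± 0.15, SE) and Calb2 (-1.15 ± 0.20, SE), both calcium-binding proteins, and in Esrrg (-0.88 ± 0.13, SE), a nuclear receptor, with adjusted p = 0.000397, 0.0256 and 0.0121 (limma). The call of Calb2 was lost when array 2 of either level was left out, with adjusted p up to 0.136, and that of Esrrg without sample-1 array 2 (adjusted p = 0.0577). At probe sets other than the brightest, Kcnc1 (-0.99), Vsnl1 (-0.52) and Ldhb (-0.50 to -0.41) fell too. Their adjusted p was 0.00677, 0.0305 and 0.0303 to 0.0344 (limma). The brightest probe set of Kcnc1 differed by -0.05. With these, 8 of the 18 genes had a probe set past the threshold. All 3 lie outside the naming rule and are given because of those calls.

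For small unmyelinated neurons 3 of 11 rose, Trpv1, Th and Tac1, against 0.295% of all 13543 genes. All 11 lay above 0, while 51.2% of all genes lay below 0. The summed intensity of the 11 was 17860 and 17730 on the sample-2 arrays, against 14390 and 13930 on the sample-1 arrays. Nefh lay lower at the sample-2 level, as did that sum for large neurons, and the brightest Prph probe set lay higher, as did that for small neurons. Neither filament gene passed. Nefl and Nefm overlapped between the levels, and the other tested Prph probe set lay lower at the sample-2 level, so the filament genes did not all follow these sums. In ganglion RNA fewer cells of a type and less RNA per cell cannot be told apart. The part of these markers in the filament values was not tested. The calls of Th and Tac1 each needed particular arrays, with adjusted p up to 0.192 and 0.245 when arrays were left out in turn, above 0.05 for 3 of the 4 arrays in each. Plxnc1 did not pass at its brightest probe set (0.35, adjusted p = 0.0561, limma). Another of its probe sets rose by 0.54 (adjusted p = 0.0327, limma), so 4 of the 11 genes had a probe set past the threshold.

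Beside Vim, Gfap and Nes stand the lists of non-neuronal cells. Of 9 satellite glia markers 0 passed (limma; 1 at an unadjusted p under 0.05, against 10.9% of all probe sets). Below 0 lay 8 of the 9, with a median difference of -0.08. Their sum overlapped, at 12950 and 11990 on the sample-2 arrays, against 12700 and 13170 on the sample-1 arrays. Slc1a3, a glutamate transporter, had the largest difference of that list and did not pass (-0.48 ± 0.22, SE, adjusted p = 0.469, limma). Without sample-2 array 1 its difference was -0.76, and without sample-2 array 2 it was -0.20, with no call in either. Of 11 Schwann cell and myelin genes 2 fell, Pmp2 and Ugt8a, against 0.546% of all 13543 genes. All 11 lay below 0, against 51.2% of all genes. The sum of the 11 was 22190 and 17840 on the sample-2 arrays, against 25450 and 23400 on the sample-1 arrays. Mbp fell by 0.67 at a probe set other than its brightest (adjusted p = 0.0387, limma). With it, 3 of the 11 had a probe set past the threshold. Of 11 markers of fibroblasts, meninges and perineurium 6 fell, led by Ptgds, Mfap5 and Col1a2, and all 11 lay below 0. Their sum was 9536 and 9115 on the sample-2 arrays, against 15990 and 14070 on the sample-1 arrays. Ugt8a and Col1a2 lost their calls when array 1 of the sample-1 level or array 2 of the sample-2 level was left out, with adjusted p up to 0.143 and 0.111.

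Vascular and muscle cells can also hold vimentin or nestin. Of all 13543 genes 0.546% fell, 0.295% rose and 51.2% lay below 0. Of all probe sets tested, 10.9% had an unadjusted p under 0.05 (limma). Of 10 endothelial and mural markers 0 passed (limma; 4 at an unadjusted p under 0.05), and 8 of the 10 lay below 0, with a median difference of -0.25. Their sum was 3281 and 3171 on the sample-2 arrays, against 3069 and 2903 on the sample-1 arrays. Without Rgs5, a pericyte gene with 2128 and 2183 on the sample-2 arrays, against 1718 and 1655 on the sample-1 arrays, the sum took the other order, at 1153 and 988 on the sample-2 arrays, against 1351 and 1248 on the sample-1 arrays. Tagln, a smooth muscle protein, had the largest difference there (-0.57 ± 0.16, SE, adjusted p = 0.176, limma). It was -0.83 without sample-2 array 1, where it passed (adjusted p = 0.0351, limma), and -0.31 without sample-2 array 2. Of 10 skeletal muscle genes 1, the myosin gene Myh2, had an adjusted p under 0.05. It measured 2.16 and 11.7 on the sample-2 arrays, both under the filter, against 42.8 and 119.6 on the sample-1 arrays, and so was tested only through its sample-1 arrays. Its adjusted p was 0.0319 (limma), a call lost when array 2 of the sample-1 level or array 1 of the sample-2 level was left out. The muscle sum was 1729 and 1142 on the sample-2 arrays, against 1469 on sample-1 array 1 and 7117 on sample-1 array 2. Mb, the myoglobin gene, measured 57.1 and 36.1 on the sample-2 arrays, against 86.8 and 285.3 on the sample-1 arrays. The part of muscle or vascular RNA in the Nes values was not tested. Rgs5 and Mb, like Ntrk2, were chosen after their values were seen. Of 8 tested blood and macrophage genes 3 rose, Lcn2, S100a9 and S100a8, with 5 above 0 and 3 below. Among those below were the macrophage genes Csf1r (-0.36) and C1qa (-0.37), which did not pass and are likewise named after their values were seen.

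Glial and neuronal filaments are known to shift after nerve injury, so injury genes were listed as well. Of 11 tested genes 0 passed (limma; 3 at an unadjusted p under 0.05, against 10.9% of all probe sets), and the median difference was -0.03. Sprr1a, a gene of regenerating neurons, had the largest difference (-0.81 ± 0.26, SE, adjusted p = 0.238, limma), with 59.4 and 25.2 on the sample-2 arrays, against 94.3 and 70.6 on the sample-1 arrays. It was -1.25 without sample-2 array 1, where it passed (adjusted p = 0.0298, limma), and -0.37 without sample-2 array 2. The listed genes' summed intensity overlapped, at 4332 and 3958 on the sample-2 arrays, against 4053 and 4008 on the sample-1 arrays.

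**Figure D4:**
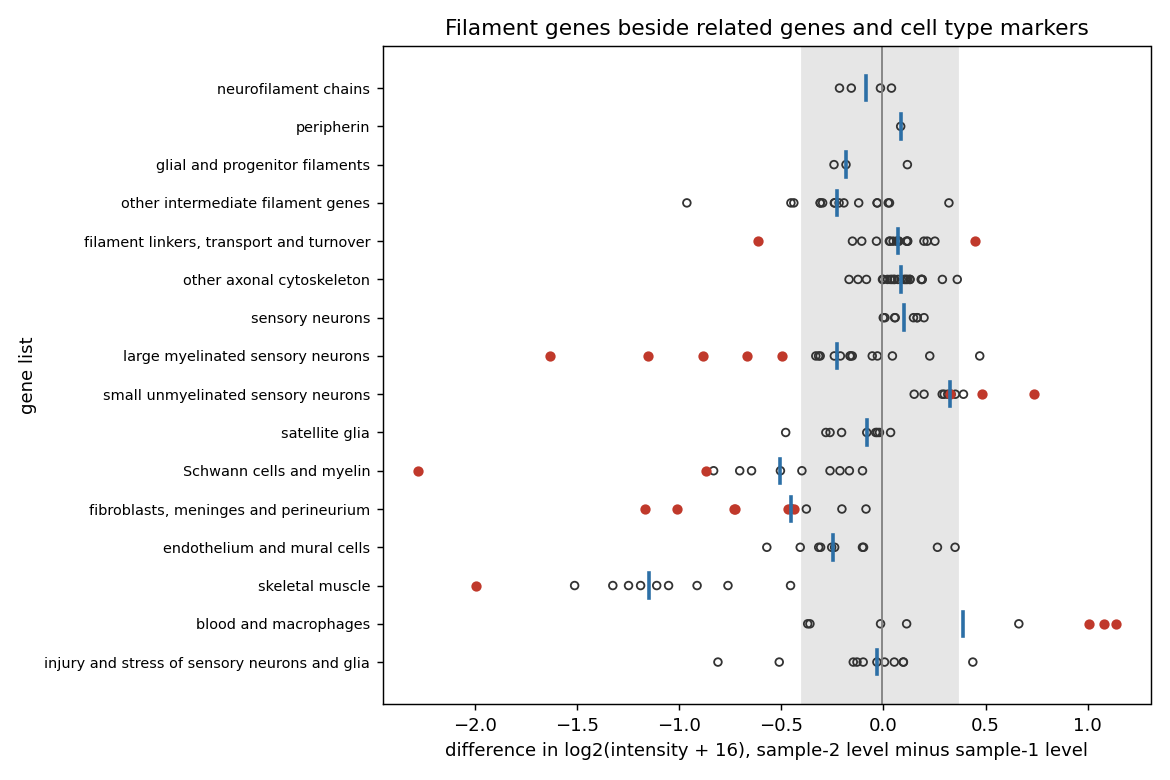
Difference in log2(intensity + 16), sample-2 level minus sample-1 level, for the brightest tested probe set of each listed gene (points, red where the adjusted p was under 0.05), with the list median (blue bar). The grey band spans the 5th to 95th percentile of all 13543 genes, -0.40 to 0.36, and the neurofilament chains, Prph and the glial filaments lie inside it.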

How the data were processed

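The authors deposited 1 intensity per probe set and array on a linear scale, per the value table; which software and steps made it is not given in the sources used here. The trimmed mean of each array, leaving out 2% at either end, was 150.0, a shared scaling target. Array medians lay at 25.9 to 27.3, within 0.05 on the log2 scale and under the limit of 0.15, so that scaling was kept. The arrays correlated at r = 0.982 to 0.987 across the tested probe sets.

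Values were taken as log2(intensity + 16). The 64 control probe sets and probe sets with a mean under the 40th percentile were left out, which left 27022. These were fitted with limma 3.58.1 in R 4.3.3 (lmFit, eBayes with an intensity trend, 2 residual and 9.71 prior degrees of freedom). Gene names came from the platform annotation, and gene lists used each gene's tested probe set with the highest mean log2 value. The named genes were the filament genes, up to 3 genes past the threshold per list or else the one with the largest difference, and the 2 genes closest in pattern to Nefh, Prph and Vim. The members and lists were chosen with earlier results of these data known. The reference annotation was used for gene order and names only. Tested on simulated data of 27022 probe sets for this comparison, the fit found 27.6% of changes of 1.5-fold, 63.6% of those of 2-fold and 98.1% of those of 4-fold, with 5.21% false calls. The simulated spread was drawn from the fit's own variance model, so a false call rate near the threshold was built in. Changes were added on the log2(intensity + 16) scale, so for dim probe sets they are not fold changes of intensity. The number of arrays limits the precision. Some listed genes were not tested, because they lay under the filter or no probe set carried their symbol alone in the annotation used.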

Additional observations from a re-analysis of the deposited data

How the results depend on the processing

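The differences of the 8 filament genes by their brightest probe set, and of the Nes probe set 1449022_at, were recomputed in 113 combinations with other settings. In 100 they kept their direction and their side of the threshold. The number of all probe sets past the threshold, 168, was 4 without the filter, 104 with each array centred on its median, 1 without the intensity trend, 793 with the array number as a replicate block, and 102 to 241 with each array left out in turn (lowest without sample-2 array 2, highest without sample-2 array 1). The number of filament probe sets past it, 1, which passed the filter only through its sample-1 arrays, was 0 without the filter, with a filter at the 60th percentile (which removed that probe set) and without the trend, and 0 to 2 with each array left out, where the second was Nefh without sample-2 array 1. The Nes probe set 1449022_at kept its difference of -1.38 without the filter and without the trend and lost its call, and ranged from -1.59 to -1.17 with arrays left out. Leaving out arrays gave -0.080 to 0.051 for Nefl, -0.0065 to 0.086 for Nefm, -0.34 to -0.094 for Nefh, -0.57 to 0.089 for Gfap and -0.046 to 0.28 for Nes 1418289_at, with signs turned for all of these but Nefh. For Prph it gave 0.036 to 0.13, for Vim -0.26 to -0.11 and for Ina -0.21 to -0.10, with no sign turned. With the mean of all tested probe sets of a gene, the difference was 0.012 for Nefl, -0.064 for Prph and -0.63 for Nes, each with its sign turned and none past the threshold (limma). The ratio of Nefl, Nefm and Nefh to Prph was then 0.0090 in place of -0.15, and that to Vim, Gfap and Nes 0.27 in place of 0.04. The cause of these changes was not tested.

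The array numbers were not taken as pairs. Deviations of same-numbered arrays from their level means correlated at 0.03, and with the replicate block the calls of the filament genes did not change: the Nes probe set 1449022_at stayed past the threshold and 0 others passed. Limits of these data are the 2 arrays per level, unknown levels and animals, and Gfap and Nes intensities near the filter level.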

Other observations

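Intermediate filament genes beyond those above, namely lamins, desmin, synemin, beaded filament and keratin genes, were on a list of 22, of which 16 were tested by their brightest probe set. Of these 0 passed (limma, 2 at an unadjusted p under 0.05, against 10.9% of all probe sets), and the median difference was -0.23. Below 0 lay 13, against 51.2% of all 13543 genes. Of those below 0, Des, Krt18, Krt19 and Bfsp1 had a sample-2 mean under the filter on the log2 scale. They were tested only through their sample-1 arrays, so the count of 13 rests in part on the filter. That count was not tested and is a description only. Des, the desmin of muscle, had the largest difference and measured 5.95 and 24.8 on the sample-2 arrays, against 26.6 and 63.8 on the sample-1 arrays (-0.96 ± 0.35, SE, adjusted p = 0.307, limma). Its highest value lay on sample-1 array 2, the array with the highest muscle sum, and without that array its difference was -0.51. On other arrays the order differed. Des was lowest on sample-2 array 1, where the muscle sum of 1729 was above the 1469 of sample-1 array 1. The part of muscle RNA in the Des values was not tested. Lmna, the lamin A/C gene of the nuclear envelope, measured 560.8 and 501.9 on the sample-2 arrays, against 600.7 and 638.4 on the sample-1 arrays, and Lmnb1, a lamin B gene, 68.7 and 72.9 on the sample-2 arrays, against 56.0 and 51.0 on the sample-1 arrays. Lmna lay lower and Lmnb1 higher on both sample-2 arrays, and neither passed (adjusted p = 0.451 and 0.533, limma). Both lie outside the naming rule and are given as the lamins of the list whose arrays did not overlap. Krt222, a keratin-like gene, measured 182.0 and 182.6 on the sample-2 arrays, against 214.9 and 206.7 on the sample-1 arrays, and was likewise chosen after its values were seen.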
